A study of Drosophila melanogaster with 15 samples.

Results

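The aminoacyl-tRNA synthetases are the enzymes that load each transfer RNA with its amino acid. They were examined in brains of third-instar Drosophila melanogaster larvae with 3 copies of the X chromosome or of the left arm of chromosome 2 (2L). Members were chosen by symbol alone, as every gene named with a three-letter amino acid code followed by RS, with or without the mitochondrial suffix -m, which gave 33 of the 8990 genes in the count table. Of these, 18 have no suffix and are treated here as cytosolic, and 15 carry the -m suffix. All 33 passed the filter on low counts, which kept 8981 genes for testing.

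A synthetase couples its amino acid to the matching transfer RNA in a reaction that consumes ATP, and so supplies the ribosome with charged transfer RNAs. In animals a subset of the cytosolic enzymes is held with small scaffold proteins, the AIMPs, in a multi-synthetase complex, and mitochondria use either a separate enzyme, encoded in the nucleus, or a second form of the cytosolic one. Mutations in human synthetase genes are known for diseases of nerve and brain, and uncharged transfer RNA is a classic trigger of the kinase GCN2, which acts through eIF2alpha and the transcription factor ATF4.

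The study sequenced polyadenylated RNA from pools of 3 brains in 5 genotypes with 3 libraries each, and all larvae were stated to be female. CDXY larvae carry an attached-X chromosome, C(1)DX, and a Y, so they have 2 copies of X, whereas CDXX larvae, C(1)DX/X, have 3. C2L larvae carry the compound chromosome C(2L)SH1 and have 2 copies of 2L. T2L larvae were read, by elimination among the stated genotypes, as C(2L)SH1/+ with 3 copies. Both control genotypes, CDXY and C2L, were taken at 5 days after egg laying, and both trisomic ones at 8 days. In both comparisons of a trisomy with its control the copy number and the age therefore cannot be told apart. By the stated genotypes CDXX also lacks the Y of CDXY, and the Y cannot be told apart from copy number and age there. Oregon is a wild-type strain for which no age was given. Libraries are numbered 4, 5 and 6 by batch, and each batch, collected on a separate day, holds 1 library of every genotype.

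The libraries held 22949943 to 28272926 counts, of which the 33 synthetase genes took 0.231 to 0.308%, and single synthetase genes had 86 to 9523 counts per library. Libraries of the same genotype correlated at Pearson's r of 0.948 to 0.984 across genes and differed by far more than sampling noise. Neuronal markers were present in every library, with a summed level of 5 genes between 1308 and 2102 CPM, counts relative to library size, and neuroblast markers summed to 227 to 421 CPM. CPM values are scaled by the TMM method, and levels of different genes are compared only after division by exon length in kilobases (kb).

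In Oregon brains the cytosolic synthetases were expressed above the mitochondrial ones. The median level of the 18 cytosolic genes was 35.8 CPM per kb and that of the 15 mitochondrial genes was 8.72 CPM per kb. LysRS, which charges lysine transfer RNA, headed the order with 90.9 ± 9.53 CPM per kb (SD, n = 3). SerRS followed with 90.1 ± 9.60 CPM per kb and ThrRS with 82.5 ± 8.33 CPM per kb, and the libraries of neighbours among the 6 leading genes, from LysRS to AlaRS, overlapped. AlaRS did not overlap with HisRS, the next in the order, at 52.2 ± 4.87 CPM per kb. At the other end, GluRS-m, the mitochondrial glutamate enzyme, had 3.07 ± 0.106 CPM per kb.

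The mitochondrial enzymes for aspartate and phenylalanine, AspRS-m and PheRS-m, were exceptions to that order, and PheRS-m, at 25.0 ± 1.33 CPM per kb, lay between TrpRS and LeuRS. The AspRS-m level of 40.6 ± 2.11 CPM per kb placed it ninth of the 33, between TyrRS and GlnRS, while its cytosolic counterpart AspRS, at 11.7 ± 1.55 CPM per kb, was the lowest of the cytosolic genes. Among the 14 amino acids for which both forms are in the set (with GluProRS, a single protein that charges glutamate and proline, set against GluRS-m and ProRS-m), the cytosolic form exceeded the mitochondrial one in 13, by 2.64 times for tryptophan up to 10.5 times for glutamate, measured per kb. The aspartate ratio was 0.287 ± 0.0254. The AspRS value is uncertain, because 63.9% of its exon bases overlap the antisense RNA asRNA:CR45141 on the opposite strand, and whether reads were counted by strand was not given in the sources used here. GluProRS shares 16.6% of its exon bases with an antisense RNA, HisRS 8.91% with Bx on the same strand, and ArgRS-m, SerRS-m and CysRS-m 11.8 to 14.3% with genes on the opposite strand.

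**Figure D1:**
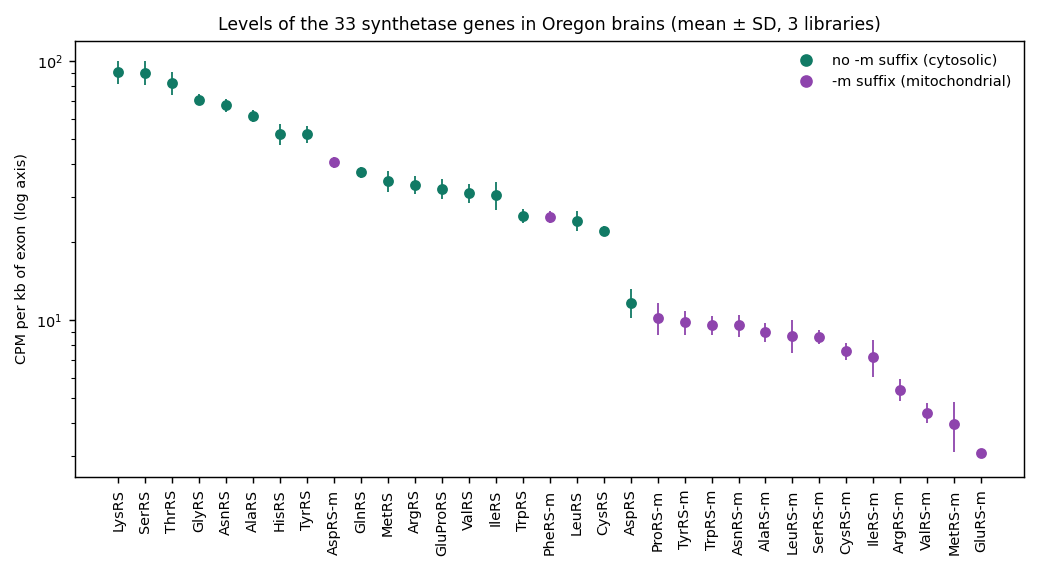
Level of each of the 33 synthetase genes in Oregon brains, in CPM per kb of exon on a log axis, as mean ± SD of 3 libraries. Cytosolic genes fill the upper end from LysRS at 90.9, and AspRS-m at 40.6 stands above the other 14 mitochondrial genes.

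In the X trisomy, the 3 X-linked members of the set rose and no other member was called higher with TMM scaling. Of the 33 members, 10 were called between CDXX and CDXY (adjusted p under 0.05 in edgeR's quasi-likelihood test, Benjamini-Hochberg over all genes tested), 3 higher and 7 lower. Over all genes tested 43.9% were called, 23.1% higher and 20.8% lower, so the share of synthetases called higher was below that of all genes and the share called lower was close to it. On X, 57.6% of genes were called higher, and the 1564 X-linked genes had a median log2 fold change of 0.45. An increase in proportion to gene copies, from 2 to 3, corresponds to 0.58. In whole brains a change in the number of cells of a type and a change in RNA per cell cannot be told apart.

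LysRS (X:9606363-9608884, dm6, minus strand) had 188, 183 and 185 CPM in the CDXY libraries of batches 4, 5 and 6, and 334, 274.5 and 315 CPM in the CDXX libraries. The groups lay far apart, and the fold change was 1.66, or 0.73 ± 0.11 on the log2 scale (SE, adjusted p = 0.000349). It was the member with the lowest adjusted p in this comparison. HisRS (X:18515428-18520445, plus strand), which charges histidine transfer RNA, had 141.5, 140.5 and 130.5 CPM in CDXY and 202, 163 and 203 CPM in CDXX. Every CDXX library was above every CDXY library, with a log2 fold change of 0.46 ± 0.11 (adjusted p = 0.00435), and the batch 5 library was the lowest of the 3.

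ArgRS (X:15841769-15844145, minus strand), the arginine enzyme, showed the smallest rise of the 3. It had 59.9, 57.1 and 61.9 CPM in CDXY and 62.2, 79.4 and 79.6 CPM in CDXX, so the groups only just failed to overlap. The log2 fold change was 0.30 ± 0.11 (adjusted p = 0.044), and its call was lost without any 1 of 5 libraries, CDXY 4, 5 or 6 or CDXX 5 or 6 (adjusted p between 0.0718 and 0.143). LysRS and HisRS kept their calls without each of the 6 libraries in turn. The median of the 3 genes within the batches was 0.52, 0.47 and 0.64 on the log2 scale, a mean of 0.54 ± 0.08 (SD, n = 3 batches).

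The 7 members called lower in CDXX comprised 3 genes on 2L and 4 on other arms. AspRS-m (2L:16827078-16832093, plus strand) had 183, 196 and 185 CPM in CDXY and 124, 140.1 and 137 CPM in CDXX. It fell by 0.49 ± 0.08 on the log2 scale (SE, adjusted p = 0.00084), the groups did not overlap, and the call held without each library in turn. Its arm has the same copy number in both groups.

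SerRS on 2L had 159.7, 160.2 and 157.7 CPM in CDXY and 121, 135.5 and 133 CPM in CDXX (log2 fold change -0.30 ± 0.10, adjusted p = 0.0326). AsnRS, also on 2L, had 158, 155 and 147 CPM in CDXY and 119, 138 and 128 CPM in CDXX (-0.25 ± 0.10, adjusted p = 0.0492, and 0.0536 with the batch as a block). In both genes, which charge serine and asparagine transfer RNA, the 3 CDXX libraries were the lower ones. Of all genes on 2L, 26.4% were called lower. The other 3 synthetases on 2L, AlaRS, LeuRS and ThrRS, had log2 fold changes between -0.19 and -0.16 and were not called.

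Off X and 2L, 4 of 24 members were called, all lower, where 24.3% of genes off X and 2L were called lower. MetRS, the methionine enzyme, had 113, 110.2 and 109.6 CPM in CDXY and 89.0, 89.1 and 99.5 CPM in CDXX (log2 fold change -0.26 ± 0.08, adjusted p = 0.0214). CysRS, for cysteine, had 58.2, 54.0 and 57.6 CPM in CDXY and 45.3, 50.8 and 48.4 CPM in CDXX (-0.23 ± 0.08, adjusted p = 0.0259). TrpRS, for tryptophan, had 44.0, 39.3 and 43.1 CPM in CDXY and 32.9, 36.8 and 36.6 CPM in CDXX (-0.25 ± 0.09, adjusted p = 0.0438). None of these 3 genes had overlapping groups, which is no separate support, since the test on the same values picked them. ArgRS-m, the mitochondrial arginine enzyme, had 13.5, 13.9 and 13.6 CPM in CDXY and 10.0, 11.3 and 10.8 CPM in CDXX (-0.35 ± 0.11, adjusted p = 0.0221), again with no overlap.

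The 23 members not called in CDXX had log2 fold changes from -0.25 to 0.23. With the batch as a block, GlyRS (adjusted p = 0.0337), ValRS (0.0278) and PheRS-m (0.0238) were also called lower. With library factors taken from genes off X and 2L, 6 members were called, 4 higher and 2 lower, in place of 3 and 7: LysRS, HisRS, ArgRS and TyrRS-m higher, and AspRS-m and ArgRS-m lower. Leaving out 1 library gave 4 to 8 calls, with 6 without CDXY library 4, 5 without CDXY library 5 or CDXX library 6, and the fewest without CDXX library 4, where the calls of ArgRS-m (adjusted p = 0.0764), TrpRS (0.145), CysRS (0.0967), MetRS (0.0696), SerRS (0.112) and AsnRS (0.159) were lost. Those 6 calls were also lost without some of the other libraries: ArgRS-m without CDXY 5 (0.0646), TrpRS without CDXY 4 or 6 or CDXX 5 or 6 (0.0523 to 0.0936), CysRS without CDXY 4 or CDXX 6 (0.0579 and 0.0568), MetRS without CDXY 5 or CDXX 5 (0.0505 and 0.0608), SerRS without CDXY 4 or 5 or CDXX 6 (0.0561 to 0.08), and AsnRS without CDXY 4, 5 or 6 or CDXX 6 (0.0505 to 0.115).

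Markers of other tissues moved with this comparison. The summed level of 8 muscle genes was 196 to 568 CPM in CDXX and 92.4 to 144 CPM in CDXY, that of 6 hemocyte genes 603 to 2161 CPM against 58.7 to 290.1 CPM, and that of 5 glial genes 1569 to 1601 CPM against 590.2 to 763 CPM. Of these lists, 6 of 8 muscle, 3 of 6 hemocyte and 2 of 5 glial genes were called higher, and 1 glial gene lower. The glial sum was carried largely by the X-linked Gs2, with a mean of 220 CPM in CDXY and 1104 CPM in CDXX. The glial gene moody, also on X, had means of 60.7 and 128 CPM. Off X, the glial means in CDXY and CDXX were 127 and 147 CPM for repo, 185 and 126 CPM for alrm, and 107 and 83.6 CPM for wrapper. The only muscle gene at 0 in a library was Mhc, in CDXY library 5. Of 20 ecdysone response genes, 12 were called lower and 3 higher, where 20.8% and 23.1% of all genes were. The part of these differences in the synthetase results was not tested.

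**Figure D2:**
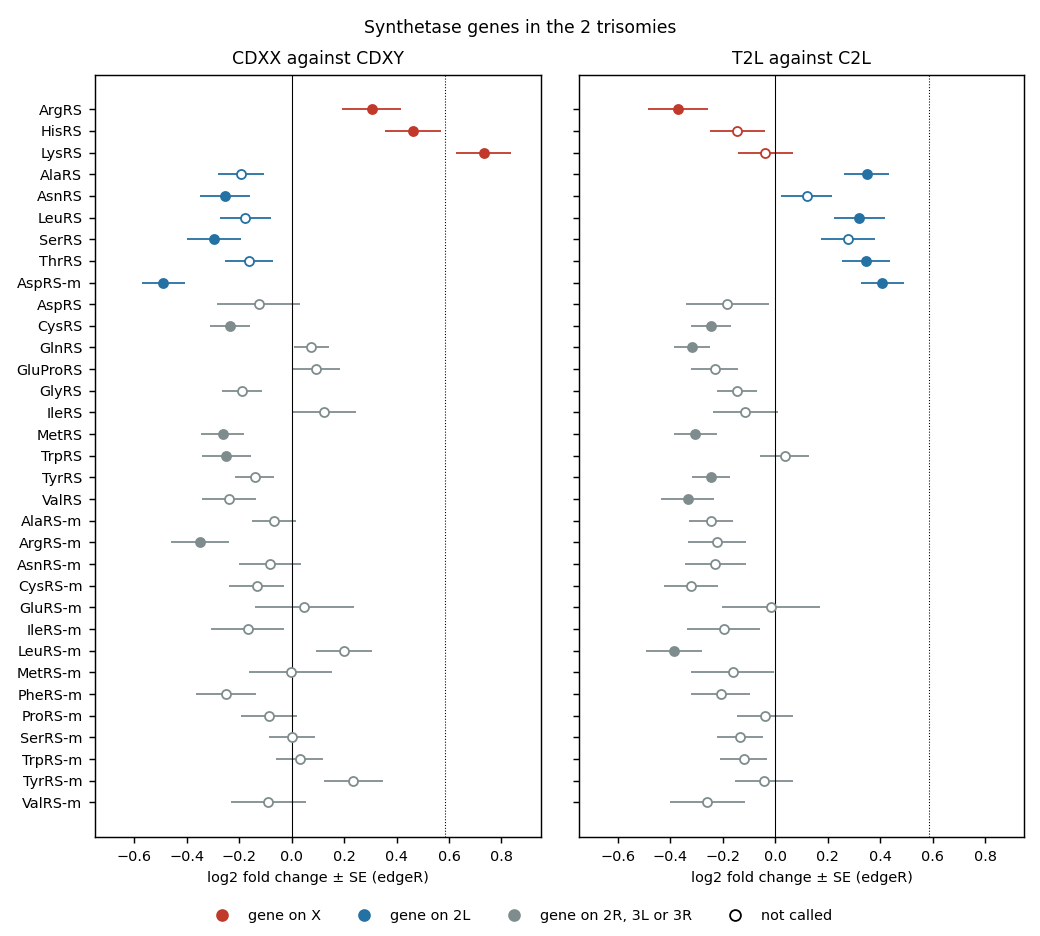
Log2 fold change ± SE of each synthetase gene in CDXX against CDXY (left) and T2L against C2L (right), with the dotted line at 0.58, the value for 3 copies against 2. Filled points were called and open points were not. The 3 genes on X lie at 0.30 to 0.73 on the left and the 6 on 2L at 0.12 to 0.41 on the right, while most other genes lie below 0.

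In the 2L trisomy, 11 of the 33 members were called between T2L and C2L by the same test, 4 higher and 7 lower, where 15.7% of all genes tested were called, 11.6% higher and 4.05% lower. All 4 that rose lie on 2L. Of the 1562 genes on 2L 51.9% were called higher, with a median log2 fold change of 0.47, and the 6 members on the arm had a median of 0.33. The remaining pair on the arm, SerRS and AsnRS, had values above 0 that did not pass the test.

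AspRS-m showed the lowest adjusted p among the members in this comparison. It had 153, 186 and 173 CPM in C2L and 224, 221 and 235 CPM in T2L, with no overlap, and a log2 fold change of 0.41 ± 0.08 (adjusted p = 0.00597). AlaRS (2L:8378262-8381764, minus strand), the alanine enzyme, had 207, 207 and 213 CPM in C2L and 244, 269 and 285 CPM in T2L (0.35 ± 0.09, adjusted p = 0.0175). Both genes were higher in every T2L library.

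ThrRS (2L:12103751-12107170, plus strand), which charges threonine transfer RNA, had 273, 252 and 269 CPM in C2L and 298, 354 and 358 CPM in T2L (log2 fold change 0.35 ± 0.09, adjusted p = 0.0237). LeuRS (2L:3510328-3514656, minus strand), the leucine enzyme, had 87.3, 81.0 and 93.7 CPM in C2L and 98.6, 111 and 118 CPM in T2L (0.32 ± 0.10, adjusted p = 0.0424). The T2L library of batch 4 was the lowest of its group for both, still above all C2L libraries.

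SerRS (2L:3035493-3037403, minus strand) had 179.5, 167 and 182 CPM in C2L and 181, 232 and 228 CPM in T2L, and the batch 4 library of T2L lay within the C2L range (log2 fold change 0.28 ± 0.10, adjusted p = 0.0867). AsnRS (2L:19129469-19131954, minus strand) had 193, 184 and 177 CPM in C2L and 177, 193 and 232 CPM in T2L. Its groups overlapped (0.12 ± 0.10, adjusted p = 0.431). The median of the 6 genes within the batches was 0.15, 0.41 and 0.40, a mean of 0.32 ± 0.15 (SD, n = 3 batches), with the smallest value in batch 4.

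The 7 members called lower in T2L were ArgRS on X and 6 genes off X and 2L, all on arms of the same copy number in T2L and C2L. Of the 7419 genes off 2L, 363 were called lower, and of the 5855 genes off X and 2L, 4.92% were. GlnRS, the glutamine enzyme, had 94.0, 81.9 and 85.01 CPM in C2L and 69.4, 70.6 and 69.5 CPM in T2L. It fell by 0.32 ± 0.07 on the log2 scale (SE, adjusted p = 0.00793) with no overlap, and kept its call without each of the 6 libraries, as AspRS-m did.

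MetRS had 123, 122 and 121 CPM in C2L and 91.0, 105 and 100.1 CPM in T2L (log2 fold change -0.31 ± 0.08, adjusted p = 0.0245). ValRS, for valine, had 100.1, 95.5 and 102 CPM in C2L and 69.4, 83.8 and 83.1 CPM in T2L (-0.33 ± 0.10, adjusted p = 0.0426). TyrRS, for tyrosine, had 96.0, 98.0 and 98.9 CPM in C2L and 77.8, 81.6 and 87.9 CPM in T2L (-0.24 ± 0.07, adjusted p = 0.0402). In each of these genes the batch 4 library of T2L was the lowest of all 6.

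CysRS had 54.3, 57.5 and 54.5 CPM in C2L and 42.3, 49.3 and 48.8 CPM in T2L (log2 fold change -0.24 ± 0.08, adjusted p = 0.0474). ArgRS had 67.4, 73.5 and 74.5 CPM in C2L and 47.6, 60.8 and 58.2 CPM in T2L (-0.37 ± 0.11, adjusted p = 0.0423). LeuRS-m, the mitochondrial leucine enzyme, had 27.5, 27.1 and 27.2 CPM in C2L and 20.2, 20.6 and 21.7 CPM in T2L (-0.39 ± 0.11, adjusted p = 0.0292). The groups did not overlap in any of the 3, again among genes picked by the test on the same values. CysRS and MetRS were the members called lower in both trisomies, and ArgRS and AspRS-m were called in opposite directions.

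**Figure D3:**
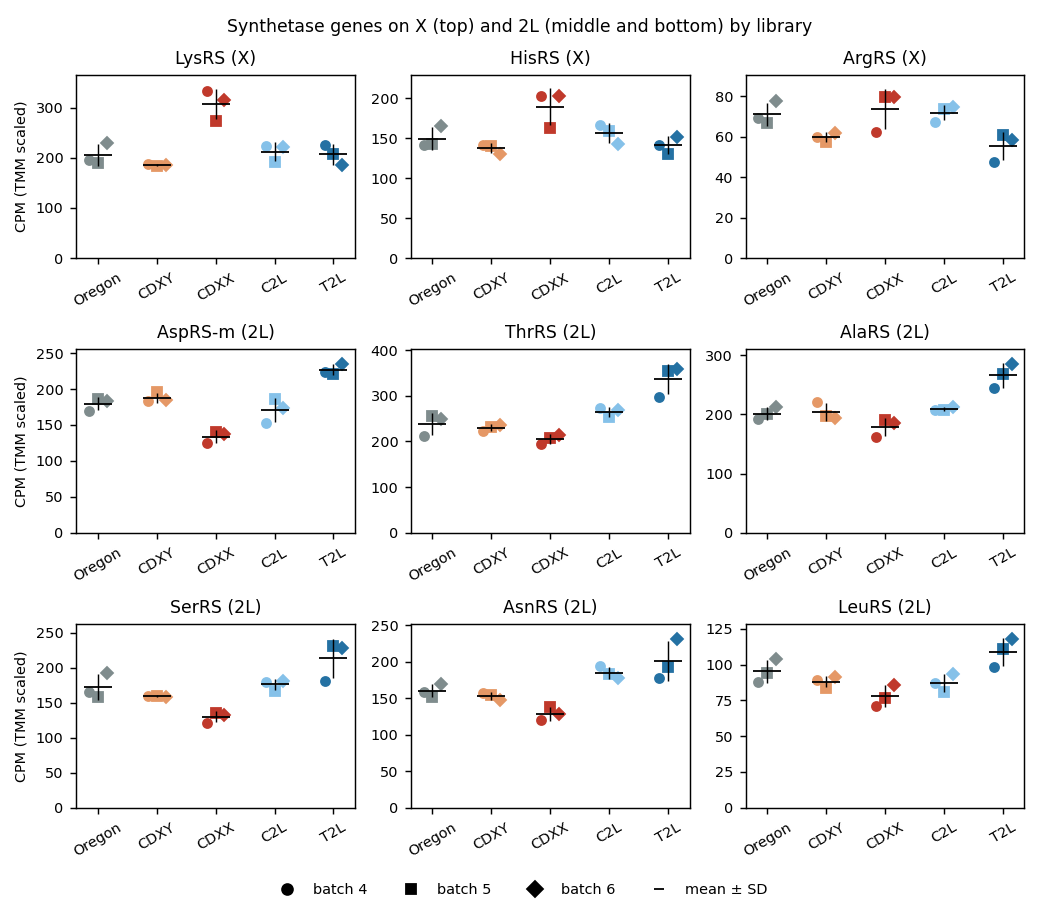
Level in CPM of the 3 synthetase genes on X and the 6 on 2L in each of the 15 libraries, with the batch as the marker shape and the bar at the mean ± SD of 3 libraries. LysRS in CDXX stands above all other libraries, HisRS in CDXX stands above CDXY but its lowest library (163) lies within the range of Oregon and C2L, AspRS-m stands above them in T2L and below them in CDXX, and the T2L values of AsnRS overlap with those of C2L.

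Across the 24 members off X and 2L, 23 had a T2L log2 fold change below 0, with a median of -0.22, where 60.8% of all genes off X and 2L were below 0 and their median was -0.07. The median of the 24 was -0.23, -0.22 and -0.19 within the batches. In CDXX, 17 of the same 24 were below 0 with a median of -0.09, where 55.4% of genes off X and 2L were below 0 and their median was -0.07. With library factors from genes off X and 2L, 7 members were called in T2L, 5 higher and 2 lower in place of 4 and 7. SerRS was then also higher (adjusted p = 0.0451), and GlnRS (0.0166) and LeuRS-m (0.0495) were the 2 lower ones.

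A fit on the C2L and T2L libraries alone called 3 members, and leaving out 1 library left 2 to 6 calls. These were 5, 3 and 2 without C2L libraries 4, 5 and 6, and 6, 4 and 5 without T2L libraries 4, 5 and 6. ValRS (adjusted p 0.0576 to 0.161) and CysRS (0.0581 to 0.174) lost their calls without any 1 of the 6 libraries. LeuRS-m (0.0597 to 0.0918) and TyrRS (0.0595 to 0.141) lost theirs without any library but T2L 6, MetRS (0.05 to 0.0959) without any but T2L 5, and LeuRS (0.0607 to 0.135) without any but T2L 4. ArgRS lost its call without C2L 5 or 6 or T2L 4 or 6 (0.0618 to 0.156), AlaRS without C2L 4 or 6 or T2L 5 or 6 (0.0505 to 0.0604), and ThrRS without C2L 5 or 6 or T2L 5 or 6 (0.0667 to 0.0829). Muscle markers summed to 135 to 205 CPM in T2L and 81.0 to 120 CPM in C2L with 1 of 8 genes called higher, and hemocyte markers to 306 to 542 CPM against 270.1 to 306 CPM with none of 6 called by edgeR. Glial sums overlapped (662 to 1298 CPM against 376 to 834 CPM), with 2 of 5 genes called higher. Of 20 ecdysone response genes, 0 were called lower and 1 higher, where 4.05% and 11.6% of all genes were. Their part in the synthetase results was not tested.

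Of the 14 mitochondrial synthetases other than AspRS-m, 1 was called in each trisomy, lower in both, where 4.92% of genes off X and 2L were called lower in T2L and 24.3% in CDXX. In T2L all 14 of them had log2 fold changes below 0, from -0.39 for LeuRS-m to -0.02 for GluRS-m, with a median of -0.20, and the called gene was LeuRS-m. In CDXX 10 of the 14 were below 0 with a median of -0.07, and the called gene was ArgRS-m. Summed over these 14 genes, the level was 267, 274 and 285 CPM in C2L and 233, 237 and 248 CPM in T2L, and every T2L library was lower. In CDXY the same sum was 251, 266 and 269.6 CPM and in CDXX 245, 245 and 266 CPM, and the groups overlapped. With AspRS-m included, the sum of 15 genes was 434 to 462 CPM in CDXY and 369.8 to 403 CPM in CDXX without overlap, so that most of the gap lay in this 1 gene.

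**Figure D4:**
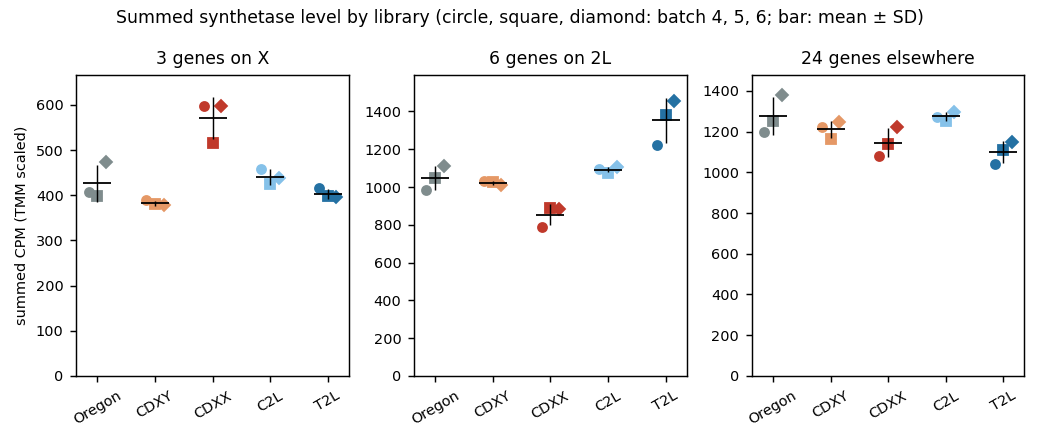
Summed CPM of the 3 synthetase genes on X, the 6 on 2L and the 24 elsewhere in each library, with batch as the marker shape and bars at the mean ± SD of 3 libraries. The X sum is 517 to 598 in CDXX and at most 474 in the other groups, the 2L sum is 1223 to 1455 in T2L and at most 1112 elsewhere, and the sum of the 24 is lower in T2L (1040.3 to 1148) than in C2L (1254 to 1297).

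The total over all 33 genes was 2646, 2569.5 and 2635 CPM in CDXY and 2467, 2544 and 2703 CPM in CDXX, and 2823, 2755 and 2844 CPM in C2L against 2679, 2888 and 2999 CPM in T2L. Both pairs of groups overlapped. The 2L members together had 1023 ± 11.1 CPM in CDXY and 854 ± 55.5 CPM in CDXX (SD, n = 3 each), and the X members had 440.3 ± 17.2 CPM in C2L and 404 ± 10.8 CPM in T2L, without overlap in either pair.

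The difference between the effects of the trisomies was tested directly, as the CDXX effect minus the T2L effect. In this contrast the step from 5 to 8 days is the same on both sides. Calls of the 20 ecdysone response genes differed between the 2 sides. In CDXX 12 were lower and 3 higher, and in T2L 0 were lower and 1 higher. The direct test of the difference called 1 of them higher and 2 lower and left 17 uncalled. Their median log2 difference was -0.79. Whether effects of age or stage cancel was therefore not settled, and it was not tested. The contrast called 10 of the 33 members, 5 higher and 5 lower, against 22.3% of all genes tested, 42.6% of X-linked genes called higher and 45.8% of 2L genes called lower. The 3 X-linked genes LysRS (0.77 ± 0.15 on the log2 scale, adjusted p = 0.00311), ArgRS (0.68 ± 0.16, 0.00922) and HisRS (0.61 ± 0.15, 0.0113) were higher, and 5 of the 6 genes on 2L were lower, from AspRS-m (-0.90 ± 0.12, 0.000607) to LeuRS (-0.50 ± 0.14, 0.0215). AsnRS, the sixth, had -0.37 ± 0.14 and was not called (0.067). The 2 called members off both arms were GlnRS (0.39 ± 0.10, 0.0108) and LeuRS-m (0.59 ± 0.15, 0.0152), both higher for CDXX. The other 9 calls held without each of the 12 libraries in turn, while that of LeuRS was lost without CDXX library 4 (adjusted p = 0.0531) or T2L library 6 (0.0598).

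Set side by side at 8 days, CDXX and T2L differed in 11 members, where 37.6% of all genes tested were called, 60.7% of X-linked genes higher and 63.3% of 2L genes lower. All 3 genes on X were higher in CDXX and all 6 on 2L were lower, from AspRS-m (log2 fold change -0.76 ± 0.08, adjusted p = 3.54e-05) and SerRS (-0.72 ± 0.10, 0.000186) to LeuRS (-0.48 ± 0.10, 0.002). ThrRS had -0.71 ± 0.09 (0.000104), AsnRS -0.64 ± 0.10 (0.000261) and AlaRS -0.57 ± 0.09 (0.000267). GlnRS (0.26 ± 0.07, 0.00979) and LeuRS-m (0.30 ± 0.11, 0.0429) were the other 2, both higher in CDXX. LeuRS-m lost its call without 5 of the 6 libraries (0.0624 to 0.17) and ArgRS without CDXX library 6 (0.0527). GluProRS was called higher in CDXX with the batch as a block, both here (0.0366) and in the difference of the effects (0.0447).

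At 5 days, CDXY and C2L differed in none of the 33 members by edgeR's test, where 2.74% of all genes were called. At an unadjusted p under 0.05 there were 5 of the 33 members, where 12.7% of all genes were. The lowest adjusted p was 0.234, for AsnRS, and DESeq2 also called 0. Log2 fold changes ranged from -0.35 to 0.23. Of the 33, 24 were below 0, where 49.5% of all genes were. The 3 X-linked members lay between -0.27 and -0.18, with a median of -0.20, where the median of all X-linked genes was -0.01. CDXY is the control in the CDXX effect, and the part of this in the results above was not tested.

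Each trisomy was also set against the wild-type strain, whose age was not given. These comparisons share the trisomic libraries with those above. Against Oregon, 11 members were called in CDXX, where 35.3% of all genes were called. Of the 8981 genes tested, 1680 were higher and 1493 lower, and on X 864 of 1564 genes were higher. LysRS (0.58 ± 0.11 on the log2 scale, adjusted p = 0.00174) and HisRS (0.34 ± 0.11, 0.025) were higher, and the 9 lower ones were ArgRS-m, AspRS-m, SerRS, MetRS, ValRS, GlyRS, AsnRS, LeuRS and TrpRS, between -0.47 and -0.25. ArgRS had 69.1, 66.5 and 77.5 CPM in Oregon, which overlapped with CDXX, and was not called. GlyRS, the glycine enzyme, had 171, 182 and 189 CPM in Oregon and 146, 159.6 and 149 CPM in CDXX, without overlap (log2 fold change -0.25 ± 0.08, adjusted p = 0.022). With the batch as a block PheRS-m (0.0164), AsnRS-m (0.0278) and ThrRS (0.0465) were also lower. The count was 6 without CDXX library 4, 7 without CDXX library 6 or Oregon library 6, 7 when scaled on genes of the other arms, and 3 in a fit of only these groups. The call of HisRS was lost without CDXX 4 or 6 or Oregon 4 or 5 (0.0845 to 0.087), and that of AsnRS without CDXX 4 or 6 or Oregon 4 or 6 (0.0509 to 0.0852). That of TrpRS was lost without any library but Oregon 5 (0.0504 to 0.132), that of GlyRS without CDXX 4 or 6 or Oregon 6 (0.062 to 0.0728), and that of LeuRS without CDXX 4 or 5 or Oregon 5 or 6 (0.0613 to 0.131). Against Oregon, 6 of 8 muscle, 4 of 6 hemocyte and 2 of 5 glial markers were called higher in CDXX and 1 glial marker lower. Of the glial genes, the X-linked Gs2 and moody had means of 379 and 48.8 CPM in Oregon and 1104 and 128 CPM in CDXX. Off X, the means in Oregon and CDXX were 126 and 147 CPM for repo, 162 and 126 CPM for alrm, and 114 and 83.6 CPM for wrapper. The part of these markers in the results against Oregon was not tested.

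In T2L, 7 members were called against Oregon, 4 higher and 3 lower. Of the 8981 genes tested 13% were called, 925 higher and 241 lower. On 2L, 784 of 1562 genes were called higher. Those higher were ThrRS (0.49 ± 0.09, adjusted p = 0.00395), AlaRS (0.40 ± 0.09, 0.00925), AspRS-m (0.34 ± 0.08, 0.0176) and AsnRS (0.33 ± 0.10, 0.0434), all on 2L. GlnRS (-0.39 ± 0.07, 0.00271), ValRS (-0.42 ± 0.10, 0.0171) and ProRS-m (-0.43 ± 0.11, 0.0196) were lower. ProRS-m, the mitochondrial proline enzyme, had 15.7, 13.2 and 17.6 CPM in Oregon and 11.3, 11.0 and 12.4 CPM in T2L, without overlap. With the batch as a block LeuRS-m (0.0217) and ArgRS (0.0232) joined them. The call of AsnRS was lost without any library but T2L 4 (0.0566 to 0.154), that of AspRS-m without Oregon 4 or T2L 6 (0.0721 and 0.0608), that of ProRS-m without Oregon 4 or 6 or T2L 4 or 5 (0.0598 to 0.079) and that of ValRS without T2L 4 or Oregon 6 (0.0699 and 0.0668). A fit of only these groups called 1 member, and DESeq2 called 12, 5 higher and 7 lower in place of 4 and 3. Muscle markers summed to 107 to 124 CPM in Oregon and 135 to 205 CPM in T2L, and their part in these results was not tested.

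The 2 control stocks had no member called against Oregon by edgeR's test, where 0.857% of genes were called in CDXY and 2.14% in C2L. At an unadjusted p under 0.05 there were 4 members in CDXY and 2 in C2L, where 11.4% and 10.1% of all genes were. DESeq2 called 0 members in CDXY and 1 in C2L. Below 0 against Oregon were 25 of the 33 in CDXY, where 51.5% of all genes were, and 14 in C2L, where 49.7% were.

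Phenylalanine is charged in the cytosol by a heteromer of alpha-PheRS and beta-PheRS, whose symbols fall outside the naming rule, and the genes of its subunits moved apart in the X trisomy. The X-linked alpha-PheRS had 68.7, 71.1 and 68.9 CPM in CDXY and 94.8, 102 and 101 CPM in CDXX, a rise of 0.51 ± 0.09 on the log2 scale (adjusted p = 0.00125). The beta-PheRS gene on 3R had 82.4, 81.2 and 85.1 CPM in CDXY and 57.1, 68.5 and 63.0 CPM in CDXX (-0.40 ± 0.08, adjusted p = 0.0028). Neither pair of groups overlapped. In Oregon alpha-PheRS had 80.4, 75.7 and 94.7 CPM, above CDXY and just below CDXX, and it was not called higher in CDXX against Oregon. In Oregon beta-PheRS had 80.6, 80.1 and 85.5 CPM. Per kb, the ratio of alpha to beta was 0.962, 1.01 and 0.935 in CDXY and 1.91, 1.71 and 1.85 in CDXX, above all libraries of the other genotypes. In T2L, beta-PheRS was also lower (-0.34 ± 0.08, adjusted p = 0.0173), alpha-PheRS had -0.26 ± 0.09 (0.0744), and the ratio was 1.21 ± 0.0115 against 1.15 ± 0.0753 in C2L (SD, n = 3 each).

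**Figure D5:**
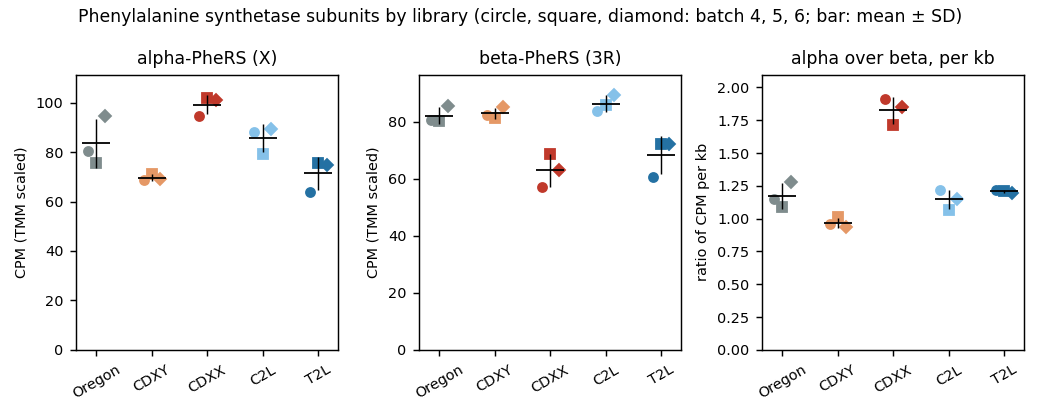
Level in CPM of alpha-PheRS and beta-PheRS, and the ratio of alpha to beta in CPM per kb, in each library, with batch as the marker shape and bars at the mean ± SD of 3 libraries. In CDXX the alpha level (from 94.8) stands above CDXY but close to the highest Oregon library (94.7), and the beta level is low. The CDXX ratio of 1.71 to 1.91 stands above the 0.935 to 1.28 of the other groups.

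These subunits belong to a list of 10 measured genes that work with the synthetases in charging. In CDXX, 2 of the 10 were called higher and 1 lower, where 23.1% of all genes were called higher and 20.8% lower. In T2L, none was higher and 2 were lower, where the shares of all genes were 11.6% and 4.05%. AIMP1, a scaffold of the multi-synthetase complex encoded on 2R, had 38.9, 36.1 and 35.4 CPM in CDXY and 55.1, 48.1 and 48.3 CPM in CDXX (log2 fold change 0.46 ± 0.09, adjusted p = 0.0018). AIMP1 in CDXX nevertheless lay within the Oregon range of 47.5 to 54.4 CPM in 2 of 3 libraries, and CDXY was the group set apart, also from C2L (-0.51 ± 0.09, adjusted p = 0.00493). GatB, a subunit of the amidotransferase that makes glutamine transfer RNA in mitochondria, had 21.4, 21.5 and 23.3 CPM in C2L and 15.0, 13.7 and 16.5 CPM in T2L (-0.55 ± 0.11, adjusted p = 0.00441). The T2L values of GatB overlapped with those of Oregon (15.4, 15.7 and 19.2 CPM).

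Genes of neighbouring steps are given by list, to be read against the same shares of all genes called, 23.1% higher and 20.8% lower in CDXX and 11.6% higher and 4.05% lower in T2L, and against a median over all genes tested of 0.02 in CDXX and -0.01 in T2L. Of 9 cytosolic elongation and termination factors, 3 were higher and 3 lower in CDXX and 2 higher in T2L. The elongation factor eEF1alpha2 fell by 1.24 ± 0.18 on the log2 scale in CDXX (adjusted p = 0.000372), and the release factor genes eRF1 (-0.44 ± 0.09, 0.00249) and eRF3 (-0.56 ± 0.10, 0.00111) were lower. The 2L gene eEF2, which moves the ribosome along the message, was higher in T2L (0.51 ± 0.10, 0.00408).

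Of 14 mitochondrial translation factors, 2 were higher in CDXX and 2 higher and 1 lower in T2L. The mitochondrial elongation factor mEFTu2 had a log2 fold change of 0.91 ± 0.14 in CDXX (adjusted p = 0.000486). Its relative mEFTu1 was lower in T2L (-0.35 ± 0.10, 0.037) and mEFTs, on 2L, was higher there (0.41 ± 0.10, 0.0178). Among 16 tRNA processing genes, 2 were lower in CDXX, where 20.8% of all genes were, and 5 were higher in T2L. The 4 named by their low adjusted p all lie on 2L, where 51.9% of genes were called higher in T2L: Rpp30 (0.63 ± 0.12, 0.00391), a protein of the RNase that trims transfer RNA ends, Mt2 (0.78 ± 0.14, 0.00326), a methyltransferase of transfer RNA, Elp3 (0.42 ± 0.08, 0.00403), a wobble modification enzyme, and the ligase RtcB (0.36 ± 0.06, 0.00232).

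Of 23 genes of the stress response and of amino acid supply, 10 were higher and 1 lower in CDXX, against 23.1% and 20.8% of all genes, and 3 higher and 1 lower in T2L, against 11.6% and 4.05%. Xrp1, a stress-induced transcription factor, had a log2 fold change of 1.45 ± 0.19 in CDXX (adjusted p = 0.000201) and 0.20 ± 0.18 in T2L (0.492). The X-linked eIF2alpha, the target of GCN2, had 0.48 ± 0.08 in CDXX (0.000915) and -0.28 ± 0.08 in T2L (0.0391). Shmt, an X-linked enzyme of serine and glycine metabolism, had 0.95 ± 0.18 in CDXX (0.00138), and the phosphoserine phosphatase gene aay rose in both, by 1.43 ± 0.31 (0.00361) and 1.45 ± 0.31 (0.00919). Among 16 growth and Myc genes, 2 were higher in CDXX, the X-linked Myc (1.55 ± 0.17, 0.000129) and the nucleolar GTPase Non1 (1.08 ± 0.21, 0.00205), and 1 in T2L, Tif-IA on 2L (0.66 ± 0.11, 0.00195).

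Over the 9 comparisons, 19 members were called at least once and 14 in none. The share of all genes called at least once was not computed, and 43.9% were called in CDXX against CDXY alone. The 14 members called in none were AspRS, GluProRS and IleRS among the cytosolic genes. Among the mitochondrial genes they were AlaRS-m, AsnRS-m, CysRS-m, GluRS-m, IleRS-m, MetRS-m, PheRS-m, SerRS-m, TrpRS-m, TyrRS-m and ValRS-m. In CDXX the members not called had adjusted p from 0.0605 to 0.999, and in T2L from 0.054 to 0.964. A p above the threshold does not show that their levels were the same.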

How the data were processed

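Raw gene counts of 15 libraries were analysed as deposited by the authors. The submitters' processing notes name Trim Galore, STAR 2.7.10a, featureCounts and the build dm6. For the strand setting, the treatment of multiply mapped reads and the choice of the genes in the table, nothing is given in the sources used here. Per the labels' protocols, libraries were made from poly(A)-selected RNA with 13 amplification cycles. Symbols, exon lengths and coordinates came from the Ensembl 115 annotation of the dm6 assembly, in which 8939 of 8990 gene IDs were found. GlyRS, LysRS and other genes without the -m suffix may also serve mitochondria, which symbols do not show.

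Counts were fitted in edgeR 4.0.16 (R 4.3.3) with TMM factors, the filterByExpr filter and the robust quasi-likelihood test over all 15 libraries in 5 groups, with Benjamini-Hochberg adjustment over 8981 genes and calls at an adjusted p under 0.05. The biological coefficient of variation was 24.9%. The scripts were tested on simulated data. Alternatives were DESeq2 1.42.0 and its size factors, other filters, factors from genes off X and 2L, the batch as a block, only the groups compared, and each library left out. The batch label marks a shared day, so libraries of the same number are paired. The main test did not use this pairing, and only the fit with the batch as a block did. Their deviations from the group means correlated with a median r of 0.137 (16 of 30 pairs over 0.1), against -0.0438 between batches (14 of 60).

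The members and gene lists were chosen with earlier results of these data known. Values per library are given for each called member in at least 1 comparison that called it, and at most 4 genes per list are named, those with the lowest adjusted p. Where groups of a called gene are said not to overlap, this adds no separate support. The share of all genes without overlap was not computed. Summed markers of neurons, neuroblasts, glia, muscle and hemocytes are given, and 4 fat body genes summed to 5.31 to 147.6 CPM, with 1 called higher in CDXX and none in T2L. Differences between libraries of a group cover biological and technical spread together.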

Additional observations from a re-analysis of the deposited data

Results flagged for a closer look

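For 10 synthetase genes the effect of the X trisomy and that of the 2L trisomy differed in a direct test of the difference (edgeR's quasi-likelihood test, adjusted over all genes tested, where 22.3% of genes were called). The CDXX effect exceeded the T2L effect, on the log2 scale, by 0.77 for LysRS, 0.68 for ArgRS, 0.61 for HisRS, 0.59 for LeuRS-m and 0.39 for GlnRS. The difference was -0.90 for AspRS-m, -0.58 for SerRS, -0.54 for AlaRS, -0.51 for ThrRS and -0.50 for LeuRS. LysRS, ArgRS and HisRS lie on X, the 5 genes with negative values lie on 2L, and LeuRS-m and GlnRS lie on neither. Of the 10, ArgRS and AspRS-m were called in both trisomies, in opposite directions.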

How the results depend on the processing

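No called member changed direction under the alternatives, but the balance of higher and lower calls did. Scaled on genes of the other arms, 6 members were called in CDXX against CDXY (4 higher and 2 lower in place of 3 and 7), 7 in T2L against C2L (5 and 2 in place of 4 and 7) and 7 in CDXX against Oregon. In the fits of only the groups compared, these were 3 in T2L against C2L, 3 in CDXX against Oregon and 1 in T2L against Oregon. The DESeq2 Wald test called 12 members in T2L against Oregon (5 higher and 7 lower in place of 4 and 3) and 1 in C2L against Oregon. The ratio of the cytosolic to the mitochondrial median in Oregon was 4.16 per kb and 6.47 without division by length.

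Leaving out 1 library gave 4 to 8 calls in CDXX against CDXY, 2 to 6 in T2L against C2L, 9 to 12 for the difference of the effects and 9 to 12 in CDXX against T2L. It gave 6 to 10 in CDXX against Oregon, 5 to 6 in T2L against Oregon, 0 in CDXY against C2L and against Oregon, and 0 to 1 in C2L against Oregon. The median of the X members in CDXX was 0.41 to 0.56 and that of the 2L members in T2L 0.28 to 0.40. With the batch as a replicate block, 12 members were called in CDXX against CDXY, 11 in T2L against C2L, 11 for the difference, 12 in CDXX against T2L, 14 in CDXX against Oregon and 9 in T2L against Oregon. The block changed no call other than those given with the results.

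The 60 calls of single members were recomputed under 840 settings in all, of which 155 lost the call and 685 kept it. The counts of genes called per list moved by over 1.5 times in 69 of 338 settings. The number of libraries, 3 a group, limits the precision, and GluRS-m, with the lowest level per kb, had the widest error in CDXX against CDXY.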
